A study of Mus musculus with 16 samples.

Results

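Muscle stem cells without p53 were compared with wild-type cells in the 6 libraries whose labels carry a genotype and a replicate number and no further suffix, 3 labelled p53WT and 3 labelled p53KO, out of 16 libraries in the series. The other 10 carry the suffix 3dai (3 p53WT and 3 p53KO) or G2 (2 and 2), which the labels do not spell out, and enter here for the shared estimate of spread and for a test of where the genotype difference itself differs. All 6 libraries came from hind limb muscles of C57BL/6 mice of 2 to 3 months, digested with collagenase and dispase, and the sort kept cells that carry alpha-7 integrin and CD34 and left out cells with the endothelial marker CD31, the blood markers CD11b and CD45, or Sca-1. RNA was taken right after the sort. The labels do not use the word uninjured, and they say nothing of an injury for these 6. The sources used here do not give the allele, the promoter behind any Cre recombinase, or whether p53 is missing from the stem cells alone or from the whole mouse. The series title names rhabdomyosarcoma and a Duchenne model, and no Dmd genotype is given for these libraries. Whether replicates are separate animals is not stated, so a p covers no more than the spread among these samples, which may be technical.

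The protein p53 is a transcription factor that cells keep scarce while they are undisturbed, because the ubiquitin ligase Mdm2, itself a p53 target, marks it for degradation. DNA damage and other stresses stabilise it, and it then switches on genes of cell cycle arrest, cell death, repair and metabolism. Muscle stem cells, also called satellite cells, lie quiescent beside the muscle fibre, carry the transcription factor Pax7 and leave quiescence when the muscle is damaged. As a tumour suppressor it also bears on rhabdomyosarcoma, a tumour with features of the muscle lineage to which people with inherited p53 mutations are prone.

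A p53 site in a promoter was sought here as 2 abutting 10-base half-sites. Half-sites with other bases between them were not searched for. The promoters of 51 of the p53 targets considered here are in a RefSeq table of the GRCm38.p6 build that spans 250 bases before to 50 bases after each gene's start, and 4 of the 51 (7.84%) hold a run within 2 letters of the p53 consensus with the core C and G of each half-site kept. The same scan found such a run in 106 of 27025 promoters (0.392%). The consensus reads the same on both strands, so 1 scan covers both. The match is a description of letters and not a measured binding site, and several of the targets are known in the field through such sites. The 3 from genes that passed the filter on low values are shown with 20 bases on either side, because the results below come back to these genes; capitals mark the 20-base match.
Cdkn1a: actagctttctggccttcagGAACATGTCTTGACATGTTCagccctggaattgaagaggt
Ccng1: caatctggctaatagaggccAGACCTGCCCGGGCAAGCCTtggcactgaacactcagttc
Ckap2: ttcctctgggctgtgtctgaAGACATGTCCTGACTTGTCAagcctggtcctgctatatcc
The Cdkn1a stretch is chr17:29090908-29090967 on the plus strand and its match begins 51 bases before the start. The Ccng1 stretch is chr11:40755442-40755501 on the minus strand, 195 bases before, and the Ckap2 stretch chr8:22185983-22186042 on the minus strand, 203 bases before. Each distance is to the start in that RefSeq table, which was not checked against the start used in these cells. Cdkn1a and Ccng1 are each 1 letter off the consensus and Ckap2 is 2 off. The remaining match, in Gtse1, belongs to a gene below the filter.

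Values are FPKM, fragments scaled to transcript length and to the number mapped, as deposited by the authors. Differences are on the log2(FPKM + 1) scale, p53KO minus p53WT, which understates the change of genes with low values, and square brackets give limma's 95% interval. The interval rests on the spread within groups over all 16 libraries, so a gene that varies within the 3dai or G2 groups gets a wider one here. Of 24341 genes, 11583 reached 1 FPKM in at least 2 of the 6 libraries and were tested. Sums of FPKM ran from 423303 to 511051, between 10675 and 10913 genes reached 1 FPKM, and the sequencing depth is unknown. The libraries were not equally alike. p53KO replicate 3 correlated at 0.905 and 0.906 with the other p53KO libraries, which correlated at 0.965 with each other, and it was the highest of the 6 in 29.1% of genes and the lowest in 27.7%. p53WT replicate 2 was highest in 23.6% and lowest in 21.7%. Medians of lists are therefore also given without one or both of these libraries where the sign turned.

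Loss of p53 left almost no mark that passed the test in these cells. The only gene called was Trp53 itself, 1 of 11583 (0.00863%), at an adjusted p under 0.05 in limma's test with Benjamini-Hochberg adjustment. No gene was called higher. At an unadjusted p under 0.05 there were 488 genes (4.21%), 317 higher and 171 lower with p53KO. In 796 genes (6.87%) the 3 p53KO values lay all above or all below the 3 p53WT values.

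Trp53, which encodes p53 (mm10, chr11:69580359-69591873, plus strand), read 39.9, 53.9 and 48.1 FPKM in p53WT and 6.34, 12.2 and 7.17 FPKM in p53KO. The groups were far apart, with means of 47.3 ± 7.01 and 8.58 ± 3.19 FPKM (SD, n = 3 each), so 18.1% of the wild-type level was left. The log2 difference was -2.37 [-2.84, -1.91] with a standard error of 0.22 and a limma adjusted p of 0.000157. With only the 6 libraries in the fit the difference was the same and the limma adjusted p 0.0809, which misses the limit. FPKM covers all exons together, and the sources used here do not say which of them the knockout removes. In bulk samples, fewer cells with the transcript and less transcript per cell cannot be told apart.

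Wrap53, a telomerase and Cajal body protein gene that lies head to head with Trp53 on the opposite strand (chr11:69561754-69579324), read 2.60, 3.75 and 4.85 FPKM in p53WT and 1.20, 1.47 and 5.73 FPKM in p53KO. Its groups overlapped through p53KO replicate 3, and its difference of -0.49 [-1.30, 0.33] did not pass. The library kit is a directional one, and no source used here says whether the counting used strand. Of 24 tested genes of the p53 family and of proteins that modify or bind p53, Trp53 included, Trp53 was the only one called. The upstream damage kinase Atm, at 0.529 to 1.74 FPKM in p53WT and 1.19 to 2.82 FPKM in p53KO, had the largest positive difference of that list, 0.38 [-0.26, 1.01].

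Of 63 known p53 targets, 54 passed the filter and limma called none. Their median log2 difference was 0.12, beside 0.012 over all genes tested, with 32 above 0 and 22 below. Without p53KO replicate 3 the median was 0.070, without p53WT replicate 2 it was 0.025, and without both it was -0.054, so its sign rested on those libraries. At an unadjusted p under 0.05 there were 3 higher and 2 lower, against 2.74% and 1.48% of all genes, and the groups did not overlap in 3 higher and 2 lower, against 4% and 2.87%. For 27 of the 54 the whole 95% interval lay between -1 and 1. That bound is a 2-fold change of FPKM + 1 in either direction, and at low values it allows a larger change of FPKM. Over all genes tested the interval lay within it for 56.8%.

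The feedback genes, which act back on p53 or its stability, had 8 members tested and a median of 0.12, or -0.082 without p53WT replicate 2 and p53KO replicate 3. Mdm2 read 33.3, 32.7 and 50.5 FPKM in p53WT and 37.0, 34.8 and 32.0 FPKM in p53KO. The groups overlapped, with p53WT replicate 3 the highest of all, and the difference was -0.13 [-0.57, 0.30]. Without that replicate it was 0.065. Ccng1, whose product cyclin G1 works with a phosphatase on Mdm2, read 10.2, 5.43 and 7.57 FPKM in p53WT and 4.93, 9.21 and 6.19 FPKM in p53KO, interleaved, with a difference of -0.17 [-0.70, 0.37]; this is 1 of the 3 genes with a promoter match shown above. Trp53inp1, a stress protein that helps p53 activate death genes, read 8.05, 4.59 and 6.89 FPKM against 6.12, 7.2 and 11.2 FPKM, also interleaved. Mdm4, an inhibitor related to Mdm2, had a mean of 14.2 ± 4.09 FPKM in p53WT and 17.6 ± 2.13 FPKM in p53KO (SD, n = 3). For 7 of the 8 the interval lay between -1 and 1, a 2-fold change of FPKM + 1.

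Among the 9 tested targets of cell cycle and growth the median was 0.17. Its sign turned on single libraries, at -0.11 without p53KO replicate 3, -0.048 without p53WT replicate 2 and -0.24 without both. Cdkn1a encodes p21, the inhibitor of cyclin-dependent kinases through which p53 arrests the cycle (chr17:29090986-29100722, plus strand), and it was among the most abundant targets, ranking 243 of 11583 genes in p53WT by mean FPKM. It read 286, 359 and 283 FPKM in p53WT and 224, 267 and 221 FPKM in p53KO. Every p53KO value was below every p53WT value, at 76.7% of the wild-type mean. The difference of -0.38 [-0.99, 0.24] was nonetheless small against the spread within groups over all 16 libraries (limma adjusted p = 0.989). That spread takes in the p53KO 3dai libraries, at 179, 65.7 and 62.6 FPKM. Within the libraries compared here the SDs were 43.1 FPKM in p53WT and 25.7 FPKM in p53KO (n = 3 each). Over the alternative settings, which include the fit of the 6 libraries alone, the difference was -0.47 to -0.22. The lowest limma adjusted p among them was 0.778. The neighbours of Cdkn1a in function were spread widely. Btg2, an antiproliferative early gene, read 761, 166 and 344 FPKM in p53WT and 417, 400 and 1370 FPKM in p53KO. The lowest value was p53WT replicate 2 and the highest p53KO replicate 3, and the difference of 0.80 [-0.30, 1.90] became -0.32 without those libraries. Gadd45a, a growth arrest and repair gene and the most abundant target in p53WT, read 709, 352 and 343 FPKM against 411, 387 and 684 FPKM, with a difference of 0.11 [-0.90, 1.13] that was below 0 when p53WT replicate 2, p53WT replicate 3 or p53KO replicate 3 was left out (-0.048, -0.066 and -0.14). Plk2, a polo-like kinase, read 70.8, 104 and 108 FPKM against 114, 114 and 106 FPKM.

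Sfn and Ckap2 were the lowest of this group. Sfn, which encodes the checkpoint protein 14-3-3 sigma, read 4.24, 8.14 and 3.38 FPKM in p53WT and 2.51, 1.69 and 1.46 FPKM in p53KO, without overlap, at a difference of -1.06 [-2.74, 0.62]. Ckap2, a spindle protein and the third gene with a promoter match, read 1.27, 2.37 and 1.82 FPKM against 0.819, 1.53 and a listed 0, at -0.74 [-1.43, -0.06] and a limma adjusted p of 0.989. Without p53KO replicate 3, the library at 0, its difference was -0.38. Both are low, where the +1 in the scale shrinks differences, and neither was called.

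The 15 tested cell death targets had a median of -0.11, with 6 differences above 0 and 9 below. The median was 0.16 without p53KO replicate 3 and 0.028 without that library and p53WT replicate 2. Fas, the death receptor, read 113, 84.5 and 70.2 FPKM in p53WT and 80.2, 73.3 and 64.3 FPKM in p53KO. The groups overlapped, and the difference was -0.27 [-1.72, 1.17]. That interval also takes in the 3dai libraries, where Fas read 8.56, 1.21 and 10.8 FPKM in p53WT and 6.24, 0 and 0 FPKM in p53KO. Bax, a pore former of the mitochondrial membrane, read 21.4, 32.5 and 13.0 FPKM against 28.8, 25.7 and 14.1 FPKM (0.06 [-0.58, 0.71]). Bak1, a pore former of the same kind, read 3.07, 5.11 and 2.89 FPKM against 4.40, 6.48 and 6.33 FPKM and had the highest difference of the group, 0.54 [0.02, 1.06], with a limma adjusted p of 0.989. Pmaip1, or Noxa, read 24.2, 16.4 and 23.7 FPKM against 17.1, 16.9 and 22.7 FPKM, and Bbc3, or Puma, 3.6, 1.38 and 4.37 FPKM against 3.21, 4.22 and 4.99 FPKM. These BH3-only killers of the Bcl2 family were interleaved between genotypes. Aen, an apoptosis-linked nuclease, had the lowest difference, -0.64 [-1.31, 0.03], with p53WT replicate 2 highest at 45.7 FPKM, p53KO replicate 3 lowest at 11.6 FPKM and the other 4 libraries between 22.3 and 24.4 FPKM; without those extremes it was -0.014. Phlda3, a membrane-binding repressor of Akt, read 10.5, 12.5 and 15.8 FPKM against 15.5, 11.5 and 7.17 FPKM.

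The 8 tested repair targets had a median of 0.06, or -0.060 without p53KO replicate 3 and -0.16 without p53WT replicate 2 as well. Ddb2, which recognises ultraviolet damage, read 1.20, 1.69 and 1.28 FPKM in p53WT and 1.78, 2.32 and 3.05 FPKM in p53KO, without overlap and higher with p53KO, at 0.49 [-0.75, 1.73]. Xpc, its partner in nucleotide excision repair, overlapped at -0.16 [-1.06, 0.74].

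Metabolism and stress targets, 14 tested, had a median of 0.25, the highest of the 5 roles with all 6 libraries. Without p53WT replicate 2 and p53KO replicate 3 it was 0.014, below that of the cell death targets. Apip, an enzyme of methionine salvage that also binds the death factor Apaf1 (chr2:103073675-103092649, plus strand), read 3.08, 1.94 and 4.45 FPKM in p53WT and 9.12, 8.95 and 14.4 FPKM in p53KO. Every p53KO value was above every p53WT value, about 3-fold on the mean (343% of the wild-type level). At 1.52 [0.96, 2.09] it had the smallest p of any gene after Trp53, and its limma adjusted p of 0.221, between 0.0799 and 0.995 over the alternative settings, did not pass. Gdf15, a secreted stress hormone, read 4.26, 8.15 and 2.67 FPKM against 8.88, 10.2 and 17.8 FPKM, also without overlap, at 1.19 [0.13, 2.24]. Ephx1, a detoxifying epoxide hydrolase, read 92.9, 64.4 and 76.5 FPKM against 103, 78.1 and 131 FPKM, overlapping. Gls2, a mitochondrial glutaminase, read 0.984, 3.94 and 2.36 FPKM against 0.467, 1.08 and 0.924 FPKM, at -0.83 [-1.61, -0.05].

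**Figure D1:**
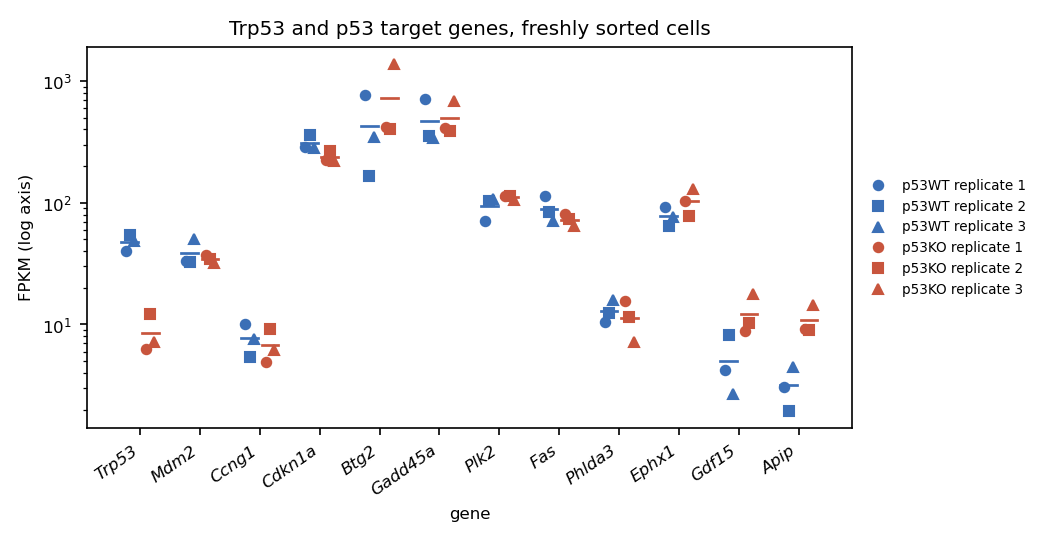
FPKM of Trp53 and 11 p53 targets on a log axis in the 3 p53WT (blue) and 3 p53KO (red) libraries; marker shapes give the replicate and bars the group means. Trp53 separates widely, Cdkn1a narrowly with p53KO lower, Gdf15 and Apip with p53KO higher, and the others overlap.

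**Figure D2:**
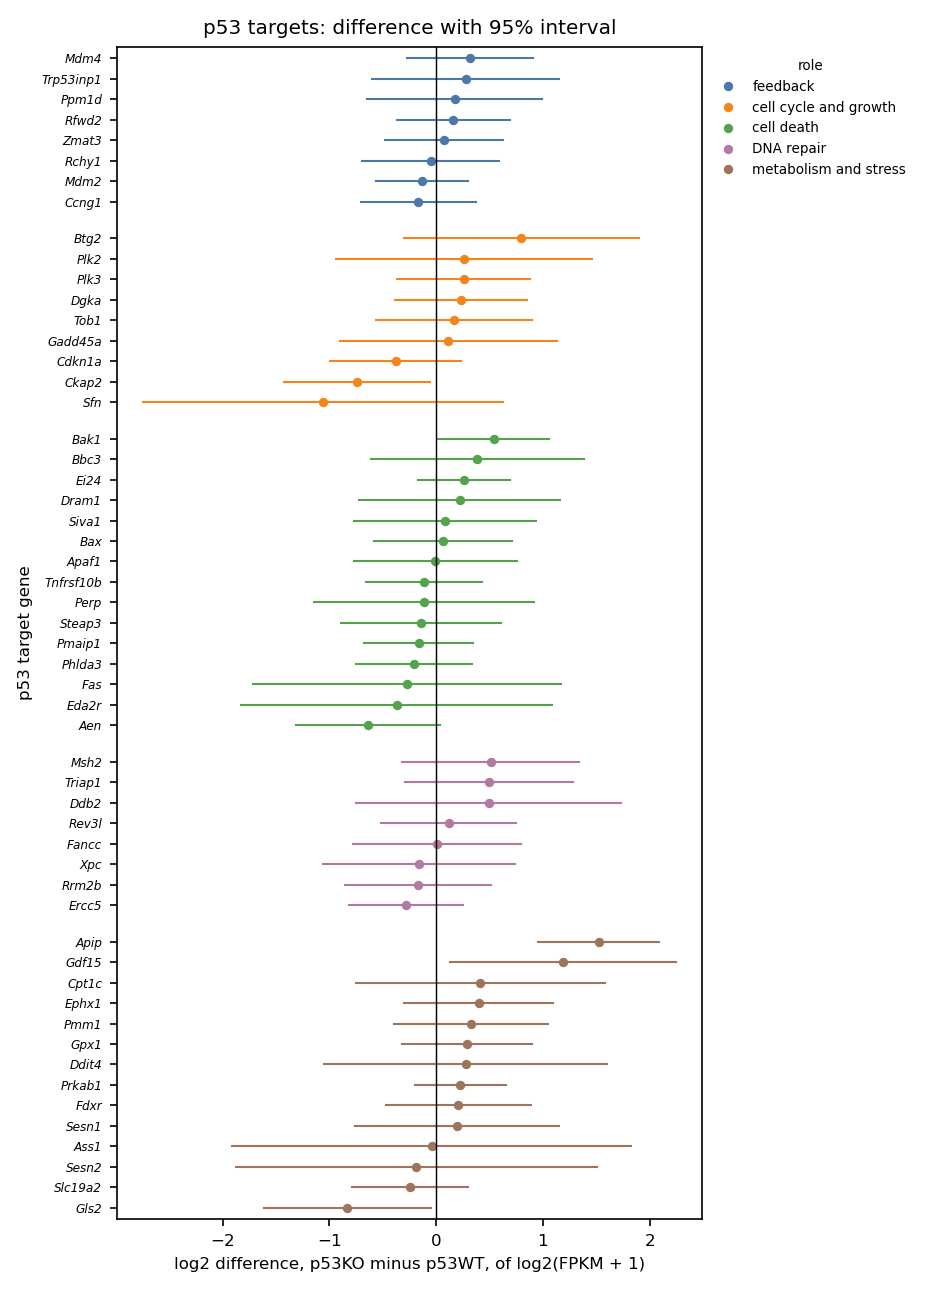
Difference of log2(FPKM + 1), p53KO minus p53WT, with limma's 95% interval for the 54 p53 targets tested, coloured by role. Most intervals cross 0, and 27 lie wholly between -1 and 1; none was called.

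The groups with a suffix share no library with these 6, and limma called 6 of the 54 targets there in 3dai and 1 in G2. In 3dai, from the tibialis anterior alone, 7 of the 11583 genes (0.0604%) were called, all lower: Trp53 and the targets Phlda3, Ccng1, Trp53inp1, Pmaip1, Cdkn1a and Slc19a2. In G2, 3 were called lower (0.0259%), Trp53 and Ccng1 among them. The median over the 54 targets was -0.46 in 3dai and -0.32 in G2. Trp53 was left at 28.4% and 28.0% of wild type there, and its own differences, -1.80 and -1.78, were not shown to differ from the -2.37 here (limma interaction 0.58 [-0.08, 1.23] for 3dai and 0.59 [-0.15, 1.32] for G2, adjusted p 0.816 and 1.00).

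The interaction, the genotype difference with a suffix minus that without, is the test of whether the comparisons differ. It called 0 genes by limma for 3dai and 0 for G2, with 705 (6.09%) and 466 (4.02%) at an unadjusted p under 0.05. For Phlda3 the difference was -0.21 [-0.75, 0.33] here and -2.36 in 3dai, an interaction of -2.15 [-2.92, -1.38] with a limma adjusted p of 0.285. Without p53KO replicate 3 it was -2.42 with a limma adjusted p of 0.0269. The 3dai interaction called 0 genes with any other of the 6 libraries left out. It also called 0 with p53WT replicate 2 and p53KO replicate 3 left out together. For Cdkn1a the interaction was -1.33 [-2.20, -0.46], for Ccng1 -1.64 [-2.40, -0.88], for Trp53inp1 -2.81 [-4.05, -1.56] and for Ephx1 -2.26 [-3.24, -1.28], all with limma adjusted p between 0.419 and 0.801. Under weights that let limma trust some libraries less, 10 genes were called for 3dai, Phlda3, Cdkn1a, Trp53inp1 and Ephx1 among them at adjusted p 0.00366 to 0.0454. For Ccng1 in G2 the interaction was -2.05 [-2.90, -1.20], limma adjusted p 0.363. Phlda3, Cdkn1a, Ccng1 and Trp53inp1 were called lower in these same 3dai libraries, and Ccng1 in G2 too. Choosing genes in that way pulls their interactions below 0, so their intervals are not independent support. The same holds for Apip, which was named for its small p in the libraries with no suffix. Apip, higher with p53KO here, was at -0.41 in 3dai and -0.37 in G2, with interactions of -1.93 [-2.73, -1.13] and -1.90 [-2.79, -1.0] that were not called. The 3dai groups also came from another muscle set, and condition and muscle cannot be told apart.

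Across the 54 targets the difference here correlated at r = 0.086 with that in 3dai and at 0.020 with that in G2, with the same sign in 30 and 27. Between 3dai and G2 it correlated at 0.57, with the same sign in 39. Over the 11582 genes tested other than Trp53, r was 0.076 with 3dai and 0.011 with G2, with the same sign in 5780 and 5747. Between 3dai and G2 the value over all genes was not computed, so the 0.57 has no background beside it. These correlations are descriptions across genes, which are not independent replicates, and each comparison has its own control libraries.

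**Figure D3:**
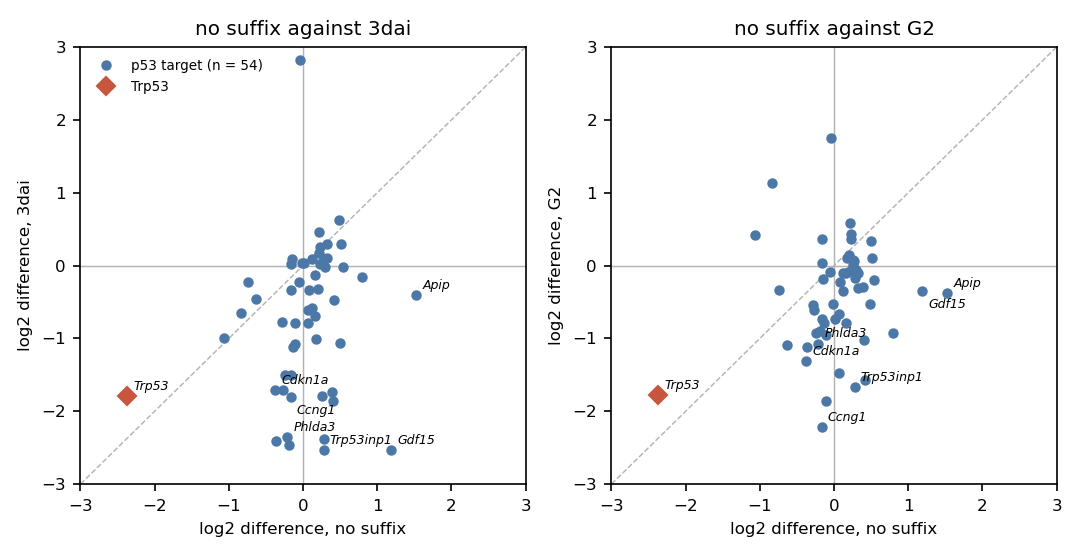
Genotype difference of log2(FPKM + 1) with no suffix (horizontal) against that in 3dai (left) and G2 (right) for 54 p53 targets and Trp53; the dashed line marks equality. Horizontally the targets run from -1.06 to 1.52 with a median of 0.12, and Apip and Gdf15 lie to the right. Vertically the median of the targets is -0.46 in 3dai and -0.32 in G2. The interaction called 0 genes for 3dai and 0 for G2.

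The 36 tested genes with a promoter match, whatever their list, had a median difference of -0.066 with no suffix, and limma called none of them; 1, Ckap2, had an unadjusted p under 0.05. That is 36 of 8842 tested genes with a promoter in the table (0.407%).

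The sorted population carried the genes of its gate and of its name. Itga7, alpha-7 integrin, was at 87.3, 92.3 and 90.5 FPKM in p53WT and 89.8, 86.3 and 81.1 FPKM in p53KO, all within a narrow band (-0.07 [-0.48, 0.34]). Cd34 was at 90.0, 59.3 and 68.5 FPKM against 76.5, 78.5 and 140 FPKM. The genes of the negative gate were near 0: Pecam1 (CD31) reached at most 2.09 FPKM, Itgam (CD11b) 0.152, Ptprc (CD45) 0.00898 and Ly6a (Sca-1) 2.79.

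Of 26 tested genes of stem cell identity and quiescence limma called none, with 1 (Dag1) at an unadjusted p under 0.05, and their median was 0.16, or 0.049 without p53KO replicate 3 and -0.058 without p53WT replicate 2 as well. Pax7, which marks the satellite cell, read 43.1, 9.33 and 26.0 FPKM in p53WT and 27.7, 28.2 and 97.1 FPKM in p53KO. The extremes were p53WT replicate 2 and p53KO replicate 3, and the other 4 libraries lay between 26.0 and 43.1 FPKM. Myod1, the factor of commitment to the muscle programme, had the reverse shape: 961, 1270 and 1083 FPKM against 1094, 1218 and 390 FPKM, at -0.45 [-1.09, 0.20], and 0.073 without p53KO replicate 3. Myf5, a related factor already present in satellite cells, read 205, 129 and 142 FPKM against 153, 160 and 328 FPKM. Dag1, which encodes dystroglycan, the laminin receptor of the dystrophin complex, read 116, 71.4 and 105 FPKM against 123, 106 and 251 FPKM and had the smallest p of the list, at a difference of 0.63 [0.08, 1.19] with a limma adjusted p of 0.989; without p53KO replicate 3 the difference was 0.26. So the library that was highest for Pax7, Myf5, Cd34 and Dag1 was p53KO replicate 3 and the lowest p53WT replicate 2, in each of these 4 genes.

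**Figure D4:**
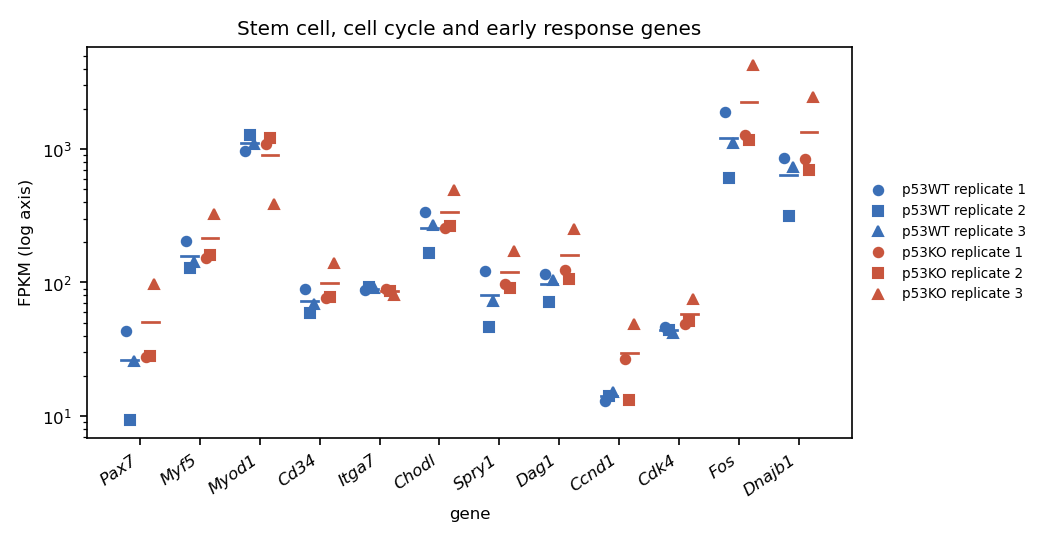
FPKM on a log axis of stem cell genes (Pax7 to Dag1), cycle genes (Ccnd1, Cdk4) and early and heat shock genes (Fos, Dnajb1) in 3 p53WT (blue) and 3 p53KO (red) libraries; shapes give the replicate and bars the means. p53KO replicate 3 (red triangle) is the highest library for most genes and the lowest for Myod1 and Itga7, and p53KO replicates 1 and 2 lie among the p53WT values for most.

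Proliferation genes were low in both genotypes, and 18 of the 25 on the list passed the filter. Limma called none, with 0 at an unadjusted p under 0.05, and the median was 0.08, or -0.036 without p53KO replicate 3. Top2a, a topoisomerase of dividing cells, read 0.822, 1.83 and 0.357 FPKM in p53WT and 0.803, 1.08 and 1.11 FPKM in p53KO, and Mki67, the antigen Ki-67, 0.493, 2.10 and 0.369 FPKM against 0.690, 0.782 and 1.60 FPKM. Ccnb1, the mitotic cyclin, was listed at 0 in all 6. The replication clamp Pcna was well above these, at 111 to 161 FPKM in p53WT and 113 to 145 FPKM in p53KO.

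Among the cyclin D group, which drives entry into the cycle and is held by p21, all 5 members were tested and limma called none. Ccnd1 (cyclin D1) read 12.9, 14.2 and 15.2 FPKM in p53WT and 26.9, 13.2 and 48.7 FPKM in p53KO, tight in p53WT and spread in p53KO, at 0.84 [0.12, 1.57]. Without p53KO replicate 3 it was 0.40 and without p53KO replicate 2 it was 1.31. Cdk4 read 46.4, 44.2 and 41.6 FPKM against 48.6, 51.4 and 75.6 FPKM, without overlap, at 0.38 [0.02, 0.73], or 0.18 without p53KO replicate 3. Cdk6, its close relative, read 2.91, 2.47 and 2.79 FPKM against 1.52, 2.29 and a listed 0, without overlap in the other direction, at -0.88 [-1.66, -0.10], or -0.37 without p53KO replicate 3. All 3 had an unadjusted p under 0.05, against 4.21% of all genes, and a limma adjusted p of 0.989. The groups did not overlap for Cdk4 and Cdk6, against 6.87% of all genes. The median of the 5 members was 0.11, or -0.21 without p53KO replicate 3 and 0.18 without p53WT replicate 2 as well. Of 9 tested Cdk inhibitors and Rb family genes the median was 0.09, or -0.099 without p53KO replicate 3 and -0.12 without p53WT replicate 2 as well. Cdkn2d (p19) ranged most, at 34.0, 2.87 and 12.3 FPKM against 15.4, 18.9 and 36.8 FPKM. Cdkn2a, whose Arf product blocks Mdm2, reached at most 1.40 FPKM in either genotype.

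Genes linked to rhabdomyosarcoma, the tumour named in the series title, had 19 members tested, 0 called by limma and a median of 0.045; 2 had an unadjusted p under 0.05, Cdk4 and H19. H19, an imprinted noncoding RNA, read 19.8, 6.67 and 10.2 FPKM in p53WT and 21.3, 13.8 and 36.1 FPKM in p53KO, overlapping, at 0.92 [0.03, 1.81]. Its imprinted neighbour Igf2, a growth factor, read 34.0, 45.5 and 39.2 FPKM against 34.8, 39.4 and 48.6 FPKM (0.04 [-0.53, 0.62]). Fgfr4, a receptor tyrosine kinase, read 144, 58.1 and 106 FPKM against 96.0, 98.2 and 255 FPKM, and Yap1, the Hippo pathway coactivator, 53.5, 70.1 and 68.6 FPKM against 59.3, 58.1 and 39.2 FPKM.

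Of 10 tested differentiation genes limma called none, with 0 at an unadjusted p under 0.05. Their median was 0.18, or -0.040 without p53KO replicate 3 and 0.16 without p53WT replicate 2 as well. Tnnt1, slow troponin T, read 17, 14.8 and 12.0 FPKM in p53WT and 22.9, 21.5 and 23.5 FPKM in p53KO, a small step without overlap (0.61 [-0.23, 1.46]). Myog, the factor of terminal differentiation, read 10.0, 0.583 and 0.181 FPKM against 0.410, 1.86 and 7.91 FPKM, with 1 high library in each genotype.

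Early response genes spread widely between libraries. The 25 immediate early genes had a median of 0.37, 0 calls by limma and 0 genes at an unadjusted p under 0.05. On the log2(FPKM + 1) scale their mean level was 8.61, 7.84 and 8.17 for the p53WT libraries and 8.25, 8.21 and 9.16 for p53KO, and the median was 0.061 without p53KO replicate 3 and -0.18 without p53WT replicate 2 as well. Fos, an AP-1 subunit, read 1892, 604 and 1118 FPKM against 1265, 1164 and 4273 FPKM. Heat shock genes, 18 tested, had the same shape, with 0 calls by limma, 2 genes at an unadjusted p under 0.05 and a median of 0.24 that was 0.078 without p53KO replicate 3 and -0.066 without both libraries. Dnajb1, an Hsp40 cochaperone, read 860, 316 and 729 FPKM against 848, 693 and 2466 FPKM, at 0.96 [0.06, 1.85]. The Notch pathway, which holds satellite cells quiescent, had 12 tested, 0 called by limma, 1 at an unadjusted p under 0.05 and a median of 0.21, or 0.033 without p53KO replicate 3 and -0.028 without both. Its ligand Dll1 read 3.32, 3.98 and 3.83 FPKM against 5.87, 4.13 and 14.0 FPKM, without overlap, and its difference of 0.78 was 0.34 without p53KO replicate 3. In all 3 groups p53KO replicate 3 had the highest list mean of the 6 libraries and p53WT replicate 2 the lowest for the early and heat shock genes; what sets these libraries apart was not tested.

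The 18 tested genes of DNA damage signalling and repair had a median of 0.28 (0.16 without p53KO replicate 3), and 0 were called by limma, with 0 at an unadjusted p under 0.05. Msh6, a mismatch repair gene, read 7.27, 8.56 and 8.66 FPKM in p53WT and 10.2, 11.7 and 12.3 FPKM in p53KO, without overlap (0.44 [-0.06, 0.94]). H2afx, the histone variant phosphorylated at DNA breaks, read 13.5, 13.8 and 13.9 FPKM against 17.7, 15.1 and 19.2 FPKM, also without overlap. Prkdc, the DNA-dependent kinase of end joining, lay the other way at 2.55, 2.02 and 1.58 FPKM against 1.23, 1.38 and 1.41 FPKM. Over the 18 genes the groups did not overlap in 2 higher and 1 lower, against 4% and 2.87% of all genes. Genes of senescence and its secreted factors, 18 tested, had a median of -0.06 (0.051 without p53KO replicate 3), with 0 called by limma and 0 at an unadjusted p under 0.05, and Il6 alone ranged from 63.2 to 378 FPKM within p53KO. Of 19 tested interferon response genes limma called none, with 1 (Ifit3) at an unadjusted p under 0.05 and a median of 0.095 that was 0.26 without p53KO replicate 3 and -0.011 without p53WT replicate 2. Ifit3, an antiviral protein gene, read 2.87, 2.83 and 1.90 FPKM against 12.8, 5.26 and 2.86 FPKM, highest in p53KO replicate 1.

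**Figure D5:**
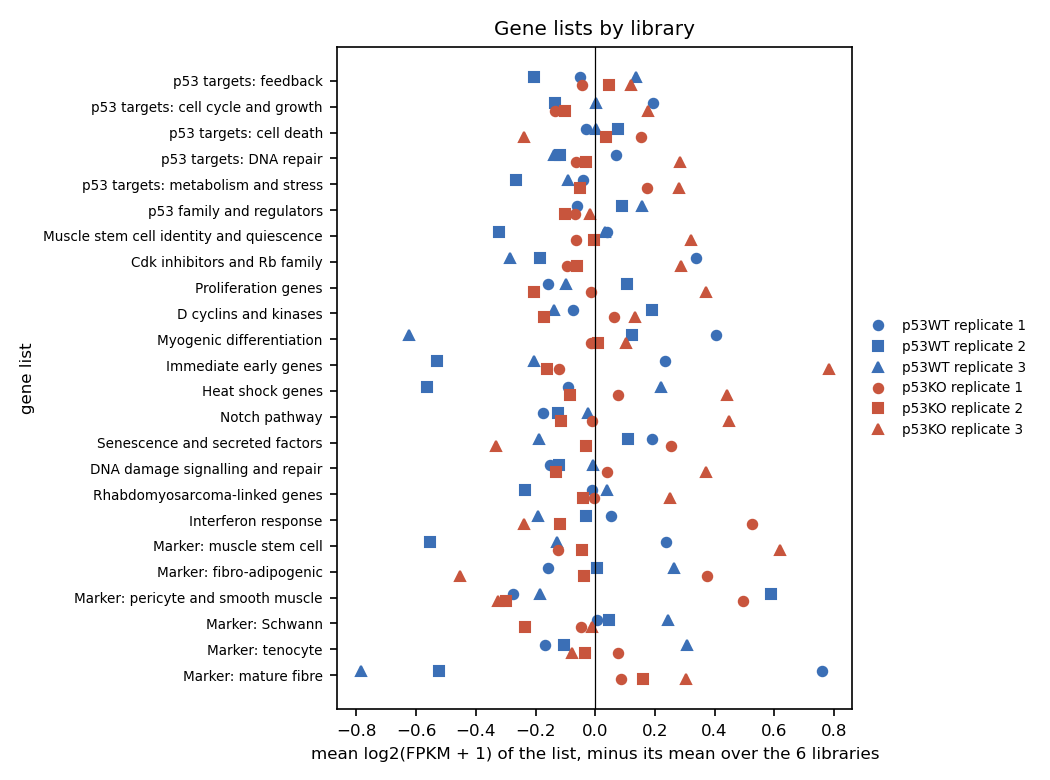
Mean log2(FPKM + 1) over the tested genes of each list, minus its mean over the 6 libraries, for 3 p53WT (blue) and 3 p53KO (red) libraries; shapes give the replicate. p53KO replicate 3 lies far right for immediate early, heat shock, Notch and stem cell marker lists and p53WT replicate 2 far left for several of them, while p53KO replicates 1 and 2 stay close to 0 for most.

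After Trp53, the genes with the smallest p among those without overlap and with a mean of at least 5 FPKM in the higher group were not called (limma adjusted p 0.221 to 0.989). Higher with p53KO were Apip, Mrpl22, Pigf, Mrpl28, Bex1, Rnf5, Krtcap2 and Thrsp. In that order their differences were 1.52, 1.22, 1.15, 1.19, 2.04, 1.34, 1.01 and 1.38. Without p53WT replicate 2 and p53KO replicate 3 they were 1.09, 1.14, 1.02, 1.09, 1.75, 0.82, 0.68 and 0.74. Mrpl22, a protein of the mitochondrial ribosome, had means of 5.11 ± 2.98 and 12.2 ± 0.383 FPKM (SD, n = 3), at 1.22 [0.63, 1.82]. Krtcap2, a subunit of the oligosaccharyltransferase that glycosylates proteins, read 33.8, 35.2 and 40.7 FPKM against 64.2, 56.0 and 115 FPKM. Its lowest p53KO value was well above its highest p53WT value, at 1.01 [0.47, 1.56]. Pigf, of GPI anchor synthesis, and Rnf5, a ubiquitin ligase of the endoplasmic reticulum, were at 272% and 320% of the wild-type mean, both under 10 FPKM with p53KO.

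Lower with p53KO, after Trp53, were Grp, Nmu, Cgref1, Mrpl55, Pusl1, Mat2b and Chrac1. In that order their differences were -2.16, -2.00, -1.23, -1.36, -1.01, -0.85 and -1.11. Without p53WT replicate 2 and p53KO replicate 3 they were -1.33, -1.06, -0.76, -1.25, -0.99, -0.81 and -0.65. Grp, gastrin-releasing peptide, read 4.88, 13.1 and 9.13 FPKM in p53WT and 2.13, 2.01 and a listed 0 in p53KO, at -2.16 [-3.20, -1.12]. Nmu, neuromedin U, another secreted neuropeptide, had means of 7.43 ± 5.38 and 1.03 ± 0.893 FPKM (SD, n = 3), at -2.00 [-2.97, -1.02]. Mat2b, the regulatory subunit of the enzyme that makes S-adenosylmethionine from methionine, had means of 12.1 ± 3.18 and 6.25 ± 1.88 FPKM, at -0.85 [-1.37, -0.33]. Chrac1, a histone-fold protein of chromatin remodelling complexes, had means of 28.2 ± 3.59 and 13.4 ± 6.12 FPKM. No list named a theme for these genes, and with 6.87% of all genes free of overlap they are given as values only.

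Markers of cells that the gate should leave out were present at different levels. Of 8 endothelial genes the summed level was 13.2 to 26.4 FPKM in p53WT and 8.63 to 22.1 FPKM in p53KO, with Kdr, Cldn5 and Tie1 under 1 FPKM in all 6. Of 9 blood and macrophage genes it was 8.78 to 27.4 and 4.74 to 18.3 FPKM, with Ptprc, Itgam, Adgre1, Csf1r, Cd74 and C1qa under 1 in all 6. Fibro-adipogenic genes summed to 818 to 948 and 770 to 1077 FPKM, tenocyte genes to 224 to 442 and 232 to 389 FPKM and mature fibre genes to 63.0 to 128 and 87.3 to 115 FPKM. Pericyte and smooth muscle genes summed to 365 to 957 and 377 to 555 FPKM, with p53WT replicate 2 the 957. The stem cell markers themselves summed to 2031 to 2966 and 2113 to 3041 FPKM.

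Schwann cell genes were the one marker list whose sums did not overlap, at 645 to 697 FPKM in p53WT and 570 to 611 FPKM in p53KO. Mbp, myelin basic protein, read 107, 124 and 112 FPKM against 93.6, 101 and 101 FPKM. It was among the 4 of 8 genes whose p53KO values all lay below their p53WT values, which held for 2.87% of all genes tested. Limma called none, with 0 at an unadjusted p under 0.05, and the median was -0.23 (-0.22 without p53KO replicate 3). The part of any of these cell types in the differences above was not tested.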

How the data were processed

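Per the labels, total RNA of sorted cells was made into directional libraries. The unit is FPKM as the authors deposited it, in a separate file for each library; per the submitters' processing notes STAR, Cufflinks and Cuffdiff were used with mm10, with versions not given in the sources used here. A listed 0 is not taken as absence, because 11 genes whose median exceeds 20 FPKM read 0 in at least 1 of the 6 libraries.

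A single model of the 16 libraries in 6 groups was fitted to log2(FPKM + 1) by limma 3.58.1 under R 4.3.3, with the variance trend on and 10 residual degrees of freedom. Genes with at least 1 FPKM in 2 of the 6 libraries were kept, and p was adjusted by Benjamini-Hochberg over all of them, with 0.05 as the limit. The fit was tested on simulated data. Named by rule are Trp53, Wrap53, the sort genes, the 8 smallest p in each direction without overlap, the extremes of each list and the 10 highest targets; other genes were chosen after their values were seen. The libraries compared and the gene lists were chosen with earlier results of these data known, so lists are described by counts and medians and not tested. Coordinates are those of the files (mm10), strands are from GENCODE M21 and promoters from RefSeq. Results of some genes are not reported here.

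Alternatives were another pseudocount, filters, scalings, weights, a fit of the 6 libraries alone, a replicate block, missing status values, small RNA names left out and each library left out in turn; leaving out p53KO replicate 3 and p53WT replicate 2 together was added after the data were seen.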

Additional observations from a re-analysis of the deposited data

How the results depend on the processing

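Trp53 was called in every setting but those of only the 6 libraries, with a log2 difference of -2.21 to -2.63 when 1 library was left out (1 gene called each time). Beside 1 gene called in the main analysis, a pseudocount of 0.1 gave 3 (Trp53, Taco1 and Nme7), no filter gave 2 (Trp53 and Hsd17b13), weights gave 2, Trp53 among them, and the 6 libraries alone gave 0, with Trp53 at -2.37 and a limma adjusted p of 0.0809. Same-numbered libraries deviated from their group means with r of -0.17, 0.14 and -0.020, and libraries of different number with r of -0.22 to 0.25. With 3 libraries a group this check cannot decide whether the numbers pair them. With the replicate number as a block in a fit of the 6 libraries 0 genes were called, with Trp53 at -2.37 and a limma adjusted p of 0.203. No p53 target was called in any setting. Their median was 0.025 to 0.20 with 1 library left out and -0.054 without both p53WT replicate 2 and p53KO replicate 3. The interaction with 3dai, 0 genes, was 1 (Nme7) with a pseudocount of 0.1, 10 with weights and 0 to 1 with 1 library left out; that with G2, 0 genes, was 2 (Ccl19 and Taco1) with a pseudocount of 0.1.

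Some named genes, none of them called, changed sign. With 1 library left out the range was -0.75 to 0.073 for Myod1, -0.59 to 0.098 for Fosl1, -0.11 to 0.34 for Tob1, -0.14 to 0.46 for Gadd45a, -0.24 to 0.065 for Mdm2 and -0.062 to 0.62 for Gpx1. Without both libraries named above Cyr61 was at -0.015, Btg2 at -0.32, Cdkn2d at -0.25, Myod1 at 0.18, Ifi35 at 0.023, Cd34 at -0.018, Igfbp5 at -0.047, Fosl1 at 0.087, Tob1 at -0.36 and Gadd45a at -0.31; their ranges with 1 library left out were 0.15 to 0.89 for Cyr61, 0.22 to 1.35 for Btg2, 0.10 to 1.69 for Cdkn2d, -0.73 to -0.17 for Ifi35, 0.12 to 0.56 for Cd34 and 0.057 to 0.56 for Igfbp5. With weights Tob1 was at -0.11 and Gadd45a at -0.10, and with quantile normalization Itga7 at 0.012. The cause was not tested. Depth is unknown, and 3 libraries a group leave a median interval of 0.69 on either side of a difference.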
